A study of Caenorhabditis elegans with 12 samples.

Results

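Whole Caenorhabditis elegans with reduced function of the insulin receptor gene daf-2, labelled daf-2lf, were compared with worms labelled wild type, using 3 RNA-seq libraries of each. Of the 12 libraries in the study, these 6 differ by daf-2lf alone and carry no skn-1gf. The other 6 come from skn-1gf, in which the detoxification regulator SKN-1 is activated, and from the double mutant daf-2lf;skn-1gf. They are used here to fit a common spread between libraries and, at the end, to ask whether the daf-2lf differences were also seen on the skn-1gf background. All worms were grown on agar plates with OP50 bacteria, lysed in TRIzol and sequenced from total RNA of the whole animal. The suffixes lf and gf stand for loss and gain of function. The labels name no allele of daf-2 or skn-1 and give no age, larval stage or growth temperature, so a difference in stage at harvest and the effect of the genotype cannot be told apart. Nothing in the labels says that the 3 libraries of a genotype came from separate cultures, and p-values measure the spread between these libraries, which may be technical. In RNA from whole animals, fewer cells of a type and less RNA per cell cannot be told apart.

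DAF-2 is the worm's receptor for insulin-like peptides. When it is active, a kinase cascade through AGE-1, PDK-1 and the AKT kinases keeps the transcription factor DAF-16, a FOXO protein, out of the nucleus. When DAF-2 activity is low, DAF-16 enters the nucleus and turns on genes for antioxidant defence, metabolism and immunity. The pathway is known for its control of lifespan and of entry into the dauer larva, a stress-resistant alternative larval stage, and strong loss of daf-2 also slows development and reproduction.

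The 6 libraries held 16903502 to 24452219 counts, and 17268 to 18956 genes had at least 1 count. Levels are given as CPM, counts per 1000000 after TMM (trimmed mean of M-values) scaling, listed for replicates 1, 2 and 3 in that order. They compare libraries, not genes of different length. The daf-2lf replicate 1 library stood apart: genes longer than 4000 bases held 4.81% of its counts, against 9.42% to 10.4% in the other 5. Its log2 CPM correlated with those of the other daf-2lf libraries at r = 0.952 and 0.953 across genes, while same-group pairs without it reached at least 0.985. Counts and values that move by over 1.5 times without this library are therefore given with and without it.

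**Figure D1:**
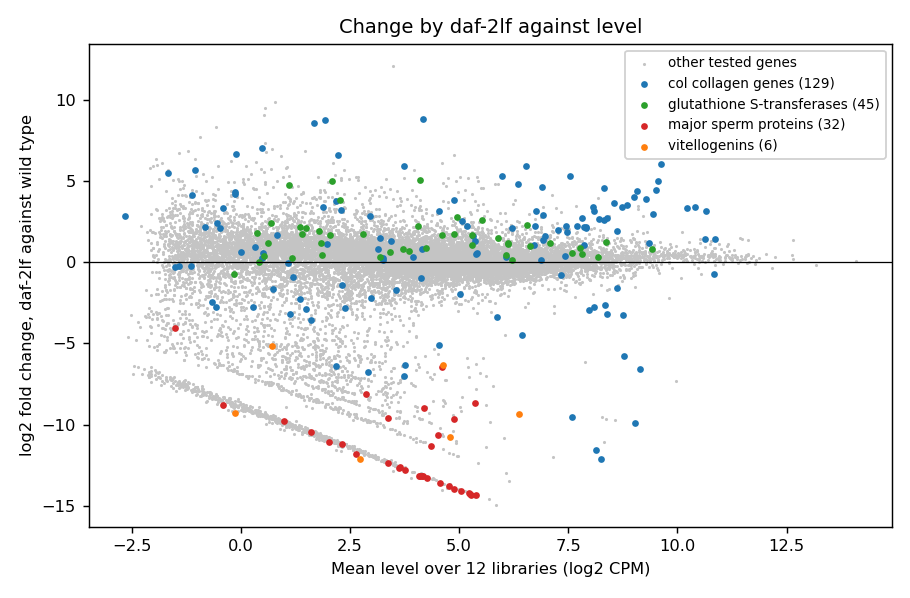
Log2 fold change of daf-2lf against wild type (vertical) against the mean level over all 12 libraries in log2 CPM (horizontal) for 15575 tested genes. Sperm protein genes, vitellogenins, collagen genes and glutathione S-transferases are coloured, and all other genes are grey. Most of the 32 tested genes of major sperm proteins lie along the bottom edge, and values of genes with no counts in a group are fitted and have no exact size.

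The daf-2 transcript itself was read first. It stood at 68.8, 66.2 and 67.5 CPM in wild type and 26.8, 125 and 126 CPM in daf-2lf, so replicate 1 was below all wild-type libraries and replicates 2 and 3 were above them. With a deposited length of 8296 bases, daf-2 is among the long genes that replicate 1 under-represents. Its difference was 0.46 log2 (SE 0.40, adjusted p = 0.35), not past the threshold, and 0.79 log2 without replicate 1, where it was called higher (adjusted p = 8.83e-06). A level of RNA does not check a mutation that acts on the protein.

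Across the transcriptome, 8152 of 15575 tested genes differed between the genotypes at an adjusted p under 0.05 in edgeR's quasi-likelihood test, which is 52.3% of them. Of the calls, 4587 were higher in daf-2lf (29.5% of tested genes) and 3565 were lower (22.9%). These shares are the background for every list below. The fitted change was at least 2-fold for 5567 of the calls. Large differences were mostly falls: 1218 genes were at least 16-fold lower and 101 at least 16-fold higher, with a lower bound as the fold of a gene whose counts in a group never exceeded 3. That was so in daf-2lf for 1224 of the genes called lower, and 625 of them had no count in any daf-2lf library. In wild type it was so for 159 of the genes called higher. Genes called lower held 15.3% to 16.8% of all counts in wild type and 4.21% to 6.28% in daf-2lf. Genes called higher held 19.99% to 21.3% in wild type and 32.9% to 37.05% in daf-2lf. The median log2 change of all tested genes was 0.15, and 2.63e-05 without daf-2lf replicate 1. List medians are read against the value of the same fit. The median of all tested genes and the split of the calls also depended on the scaling. Rises made up 56.3% of the calls with TMM scaling but 45.2% with DESeq2's size factors (RLE), under which the median was -0.033 log2. A change as small as this shift therefore has no firm direction here.

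Leaving out daf-2lf replicate 1 gave 9420 calls among 15840 tested genes, 59.5%, with 28.8% higher and 30.7% lower. Of the 8152 genes, 7283 were called in the same direction either way, 3762 higher and 3521 lower, and 0 were called in the opposite direction. The 869 genes that lost their call were nearly all called higher with replicate 1 (825 of them) and were short, with a median length of 918 bases. The 2051 genes of the first test that were called without replicate 1 and not with it had a median length of 1816 bases, where the median of all tested genes was 1329 bases. Tested genes were put into 5 equal classes by length. In the class of the shortest genes 34.1% were called higher and in that of the longest 18.8%. Without replicate 1 these shares were 24.1% and 29.5%. The shares called lower were 22.1% and 21.04% of the same classes, and 28.4% and 32.8% without replicate 1.

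**Figure D2:**
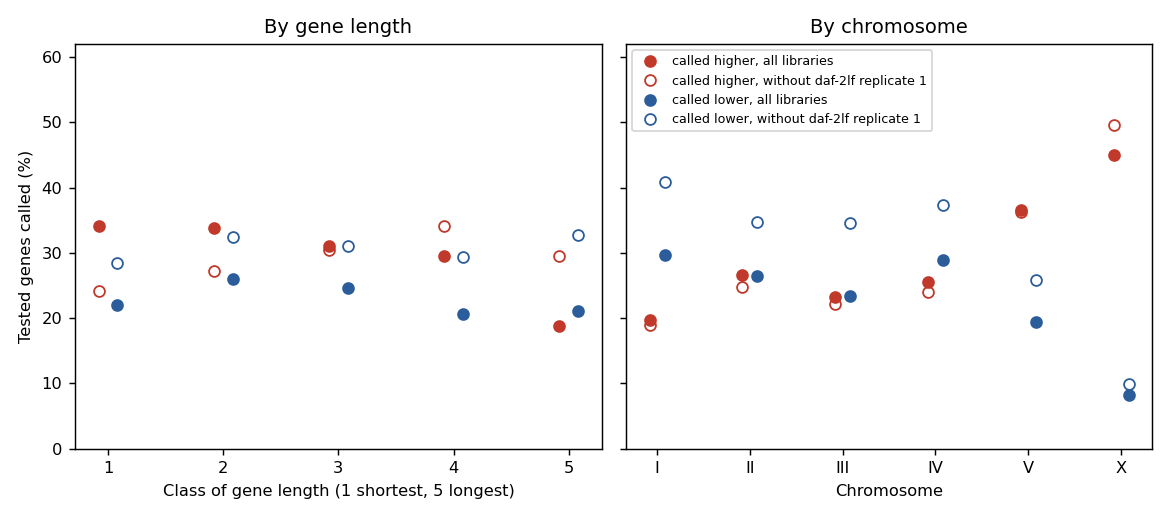
Percentage of tested genes called higher or lower in daf-2lf, by class of gene length (left, from the shortest genes in class 1 to the longest in class 5) and by chromosome (right). Solid points use all libraries and open points leave out daf-2lf replicate 1. The share called higher falls from 34.1% to 18.8% with length when replicate 1 is included, and X has 45.01% of its genes called higher and 8.25% called lower.

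Within the insulin pathway, the core genes moved in both directions. Of 18 tested, 5 were called higher and 2 lower, and 8 and 6 without replicate 1. The first counts are 27.8% and 11.1%, no more than the 29.5% and 22.9% of all tested genes. The kinase gene pdk-1 (NCBI gene 180475 on the plus strand of chromosome X, 1321344 to 1327986) stood at 7.22, 6.36 and 8.04 CPM in wild type and 25.1, 27.4 and 21.7 CPM in daf-2lf. The groups did not overlap, and the rise was 1.78 log2 (SE 0.16, adjusted p = 2.12e-06). Its target akt-2 rose by 1.40 log2 (SE 0.20, adjusted p = 0.000113), from 20.3 ± 1.64 to 53.3 ± 14.5 CPM (mean ± SD, n = 3 here and below). The related kinase akt-1 differed by -0.081 log2 (adjusted p = 0.842), at 105, 108 and 103.5 CPM in wild type and 41.6, 122.8 and 134 CPM in daf-2lf. Genes that overlap akt-1 held 133% of its counts, and those that overlap pdk-1 21.6%, so both levels are uncertain. For age-1, the catalytic subunit of the lipid kinase in this cascade, the difference was -0.35 log2 (adjusted p = 0.0837). It was called lower in 6 of 22 alternatives, among them those without daf-2lf replicate 1 or replicate 3 (adjusted p = 0.0434 and 0.048). For daf-16 it was 0.40 log2 (adjusted p = 0.0793), and 0.51 log2 without replicate 1, where it was called higher (adjusted p = 0.000207). The gene skn-1, whose factor acts beside DAF-16 downstream of this receptor, stood at 111, 125 and 117 CPM in wild type and 167, 169 and 179 CPM in daf-2lf, a rise of 0.55 log2 (SE 0.11, adjusted p = 0.00144) with no overlap.

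Targets that DAF-16 is known to activate were mostly higher. Of the 22 tested, 16 were called higher and 0 lower (13 and 0 without replicate 1), with a median of 1.12 log2. The largest change of the tested members was that of the metallothionein gene mtl-1, at 0.189, 0.0963 and 0.0462 CPM in wild type and 4.82, 4.01 and 3.03 CPM in daf-2lf. The mitochondrial superoxide dismutase gene sod-3 stood at 1.02, 1.54 and 1.43 CPM in wild type and 20.8, 16.3 and 12.2 CPM in daf-2lf. In both genes every daf-2lf library exceeded every wild-type library, with changes of 5.03 and 3.63 log2 (adjusted p = 1.15e-05 and 5.03e-07). Genes that overlap sod-3 on either strand had together 69.8% as many counts as sod-3, and as the handling of strand is not stated, its level is uncertain. The lysozyme gene lys-7 (NCBI gene 178772 on the minus strand of chromosome V, 3481432 to 3482600) was at 37.9, 34.5 and 32.6 CPM in wild type and 360.0, 124 and 251 CPM in daf-2lf, a rise of 2.81 log2 (SE 0.37, adjusted p = 4.93e-05). The daf-2lf libraries of lys-7 were spread, with replicate 2 lowest, and all lay above wild type. Catalase genes rose less: ctl-1 by 1.21 log2 and the peroxisomal ctl-2 by 1.32 log2 (adjusted p = 0.000446 and 7.83e-06). The glyoxylate cycle gene icl-1 had the highest level of the list and rose by 0.68 log2 (adjusted p = 0.00399), from 626 ± 113 to 1000 ± 160.1 CPM. The small heat-shock gene hsp-12.6 was too scarce to test, with 2, 1 and 1 counts in wild type and 14, 11 and 5 counts in daf-2lf.

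Genes known to be repressed by DAF-16 moved in both directions, with 4 called higher and 4 lower of 13 tested. These are shares of 30.8% either way, near the 29.5% and 22.9% of all tested genes. Only 2 were called higher without daf-2lf replicate 1, and as many without wild-type replicate 1. The insulin-like peptide gene ins-7 fell from 1.66, 1.35 and 1.16 CPM to 0.201, 0.0598 and 0.168 CPM, a change of -3.2 log2 (SE 0.60, adjusted p = 0.000749). The immune gene dod-24 had the highest level of the list and fell by 2.19 log2 (adjusted p = 1.71e-05), from 50.5 ± 9.63 to 11.04 ± 1.62 CPM. By contrast dod-20 rose by 2.67 log2 (adjusted p = 9.26e-05). The zinc-finger factor gene pqm-1, known to act in opposition to DAF-16, stood at 12.5, 13.1 and 14.8 CPM in wild type and 43.9, 41.6 and 32.7 CPM in daf-2lf, a rise of 1.55 log2 (SE 0.18, adjusted p = 1.77e-05) with no overlap.

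The insulin-like peptides bind DAF-2 as agonists or antagonists, and most of those detected were higher in daf-2lf. Of 22 tested, 18 were called higher and 2 lower, with a median of 1.56 log2. These are short genes, and without replicate 1 the counts were 11 and 2. The summed level of the family was 47.8 to 60.2 CPM in wild type and 198 to 365 CPM in daf-2lf, highest in replicate 1. The most abundant member in daf-2lf, ins-35 (NCBI gene 180334 on the plus strand of chromosome V, 20375536 to 20376302), was at 4.19, 3.08 and 4.71 CPM in wild type and 127, 72.9 and 84.5 CPM in daf-2lf. Its rise of 4.56 log2 (SE 0.27, adjusted p = 1.62e-07) remained 4.19 log2 without replicate 1. The largest rise was that of ins-5, from 0.529, 0.530 and 0.786 CPM to 45.6, 16.44 and 34.5 CPM, or 5.70 log2 (SE 0.42, adjusted p = 5.04e-07). Its neighbour on chromosome II, the agonist gene ins-4, rose by 4.04 log2 (adjusted p = 3.7e-06). In the opposite direction, ins-37 stood at 6.50, 5.73 and 5.73 CPM in wild type and had no more than 3 counts in each daf-2lf library. It was at least 33.4-fold lower (adjusted p = 5.93e-07). For the agonist gene daf-28 the rise of 1.19 log2 (adjusted p = 0.0271) was lost without replicate 1, at 0.85 log2 (adjusted p = 0.113). It was also lost without wild-type replicate 1 or 2 or daf-2lf replicate 3 (adjusted p = 0.0671 to 0.0901), and in 7 of 22 alternatives in all. The antagonist gene ins-18 rose by 2.04 log2 (adjusted p = 0.000199) and kept its call without that library.

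**Figure D3:**
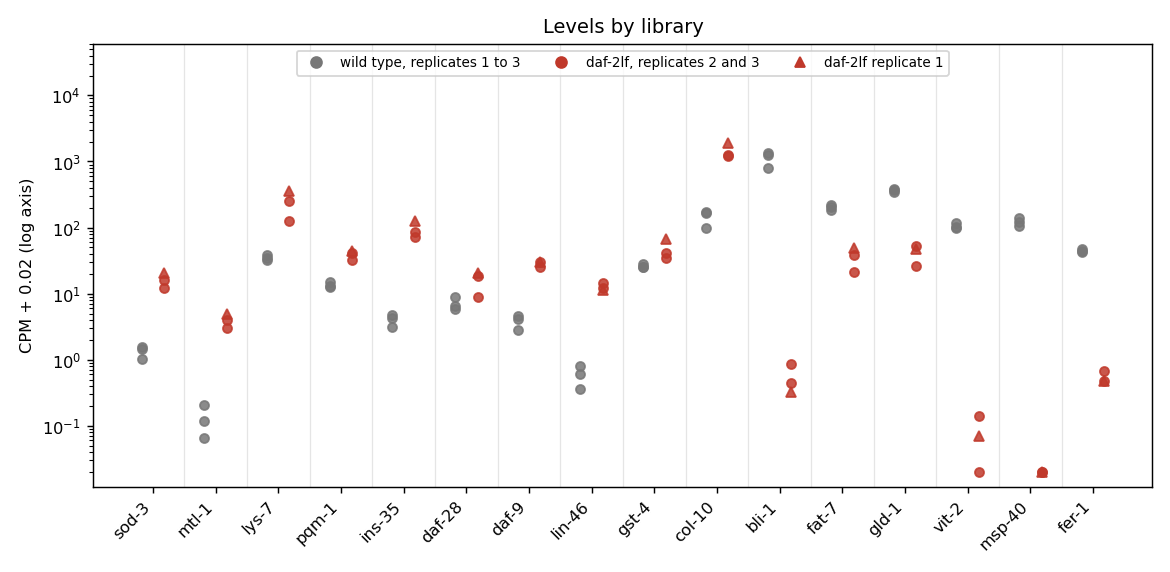
Level of 16 genes in each library, in CPM + 0.02 on a log axis, with wild type in grey and daf-2lf in red and the daf-2lf replicate 1 library drawn as a triangle. Points at the bottom have no counts. For sod-3, ins-35, daf-9 and lin-46 all daf-2lf libraries lie above wild type, and for vit-2, msp-40, bli-1 and gld-1 all lie below it.

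Genes of the dauer decision were higher in daf-2lf. Of 15 tested, 11 were called higher and 0 lower, 10 and 0 without replicate 1. The cytochrome P450 gene daf-9 (NCBI gene 180889 on the plus strand of chromosome X, 6196927 to 6200823), which makes the steroid hormone that prevents dauer entry, was at 4.57, 2.84 and 4.11 CPM in wild type and 30, 25.6 and 29.9 CPM in daf-2lf. That was a rise of 2.88 log2 (SE 0.20, adjusted p = 3.28e-07), with the daf-2lf libraries close together and far above wild type. Its receptor gene daf-12 rose by 1.42 log2 (adjusted p = 6.57e-05), and the pheromone synthesis gene daf-22 by 0.99 log2 (adjusted p = 0.00158). The TGF-beta ligand gene daf-7 differed by 0.74 log2 and was not called (adjusted p = 0.0872), except without daf-2lf replicate 2 or skn-1gf replicate 2 (adjusted p = 0.0435 and 0.0369). Both collagen genes counted here as dauer markers, col-2 and col-40, were called higher, from 0.207 ± 0.170 to 2.88 ± 2.49 CPM for col-40. Together they had at most 10.2 CPM in any daf-2lf library, and the dauer cuticlin gene cut-1 reached 2.67 ± 1.77 CPM. Genes named for overexpression in dauer or ageing worms split: dao-2, dao-3 and dao-6 rose, whereas dao-4 fell by 7.61 log2 (adjusted p = 1.71e-07), from 218, 263 and 166 CPM to 1.05, 0.837 and 1.40 CPM.

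Heterochronic genes, which time the larval stages, included several of the larger changes among regulators. Of 15 tested, 9 were called higher and 1 lower, 12 and 2 without replicate 1. The gene lin-46 (NCBI gene 179782 on the plus strand of chromosome V, 12968855 to 12970730), which acts downstream of lin-28 in larval timing, had 0.340, 0.578 and 0.786 CPM in wild type and 11.5, 14.3 and 12.01 CPM in daf-2lf. Every daf-2lf library was more than 10-fold above every wild-type one, and the rise was 4.48 log2 (SE 0.33, adjusted p = 5.17e-07). The RNA-binding gene lin-41, an inhibitor of the switch to adult fates, was at 44.9, 47.2 and 47.9 CPM in wild type and 134, 176 and 198 CPM in daf-2lf and rose by 1.86 log2 (SE 0.20, adjusted p = 8.64e-06). The zinc-finger gene hbl-1, another gene of early larval fates, rose by 1.79 log2, and lin-14 by 0.90 log2 (adjusted p = 2.67e-05 and 0.000744). The nuclear receptor genes nhr-85 and nhr-25, which act in larval timing and moulting, rose by 2.56 and 2.52 log2 (adjusted p = 7.45e-07 and 1.14e-06). The fall was that of mab-10, a cofactor of the adult-fate factor LIN-29, by 0.86 log2 (adjusted p = 0.00395). Genes that overlap mab-10 held 153% of its counts, so its level is uncertain. The early larval gene lin-28 differed by -0.37 log2 (adjusted p = 0.0969), and was called lower in 6 of 22 alternatives, among them the fit without replicate 1 (adjusted p = 0.000615).

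Genes of sperm were lower in daf-2lf. All 32 tested genes of major sperm proteins, the cytoskeletal proteins that drive the crawling of nematode sperm, were called lower. Their summed level was 1612 to 2019 CPM in wild type and 1.44 to 1.81 CPM in daf-2lf, and 29 of them had no more than 3 counts in any daf-2lf library. The most abundant, msp-40 (NCBI gene 173830 on the plus strand of chromosome II, 4825414 to 4825797), stood at 122.9, 138 and 106 CPM in wild type with no counts in daf-2lf, at least 681-fold lower (adjusted p = 3.91e-07). Members share much of their sequence and how shared reads were counted is not stated, so the split between members is uncertain while the family sum is less so. With members at their bounds, the list's median was -8.23 log2. Sperm markers outside this family behaved alike: 16 of 16 were called lower, with sums of 676 to 774 CPM in wild type and 6.02 to 8.81 CPM in daf-2lf. Of 25 further spe and fer genes, known from mutants with defective sperm, 24 were called lower and 0 higher. The ferlin gene fer-1, needed for fusion of sperm vesicles, went from 48.1, 42.6 and 43.7 CPM to 0.452, 0.658 and 0.449 CPM, a change of -6.42 log2 (SE 0.66, adjusted p = 7.18e-06). For spe-44, a transcription factor of spermatogenesis, the values were 30.8, 26.9 and 28.2 CPM in wild type and 2.31, 1.44 and 2.13 CPM in daf-2lf, so some transcript was present in each daf-2lf library. The phosphatase genes gsp-3 and gsp-4 of sperm were at 94.2 ± 3.12 and 74.3 ± 6.45 CPM in wild type. In daf-2lf gsp-3 had no counts and gsp-4 had 0.251, 0.179 and 0.168 CPM (adjusted p = 3.07e-07 and 1.31e-07).

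The gene fog-1, for an RNA-binding protein that directs germ cells to become sperm, rose instead. It was at 4.57, 5.15 and 6.89 CPM in wild type and 23.9, 16.3 and 26.03 CPM in daf-2lf. This was a rise of 2.0 log2 (SE 0.31, adjusted p = 0.000216) with no overlap between the groups. Its partner fog-3 rose by 0.86 log2 (adjusted p = 0.031), a call lost in 11 of 22 alternatives, among them those without daf-2lf replicate 1 or 3, wild-type replicate 1 or 2 or skn-1gf replicate 1 (adjusted p = 0.0517 to 0.114).

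Genes of oocytes, meiosis and the germline as a whole were lower as well, but by less. Of 25 oocyte and eggshell genes, 22 were called lower and 2 higher, with a median of -2.62 log2. The translational repressor gene gld-1 (NCBI gene 172532 on the plus strand of chromosome I, 7695681 to 7698222), which acts in meiotic progression and oocytes, was at 369, 384 and 346 CPM in wild type and 46.6, 25.8 and 52.3 CPM in daf-2lf. That is a change of -3.14 log2 (SE 0.44, adjusted p = 8.54e-05), and in contrast to most sperm genes it remained well detected in every daf-2lf library. The oocyte RNA-binding gene puf-5 fell from 23.5, 25.6 and 22.3 CPM to 1.76, 0.957 and 1.63 CPM (-4.03 log2, adjusted p = 3.7e-06). The yolk receptor gene rme-2 fell by 2.86 log2 and the eggshell gene cbd-1 by 2.49 log2 (adjusted p = 0.000138 and 0.00105). The eggshell gene perm-4 was at 58.5 ± 14.7 CPM in wild type and had no counts in daf-2lf, at least 326-fold lower (adjusted p = 4.42e-05). Of 34 meiosis genes 32 were called lower, with a median of -1.66 log2 and sums of 1134 to 1225 CPM in wild type and 285 to 542 CPM in daf-2lf. The synaptonemal complex gene syp-1 fell most, from 43.7, 39.7 and 41.3 CPM to 3.71, 5.38 and 10.8 CPM (-2.65 log2, adjusted p = 6.13e-05). Among 26 genes of germline stem cells and germ granules 21 were called lower. The helicase gene glh-1 fell from 674 ± 23.98 to 252 ± 80.0 CPM (adjusted p = 0.00187). The Notch receptor gene glp-1, which maintains germline stem cells, differed by -0.90 log2 (adjusted p = 0.0946, and 0.0637 without replicate 1) and was called lower in 5 of 22 alternatives. Among these were DESeq2 (adjusted p = 0.0289) and the fit without daf-2lf replicate 3, at -1.32 log2 (adjusted p = 0.0301). Of 37 genes of DNA replication and mitosis 13 were called lower, led by the cyclin gene cyb-1 at -2.01 log2 (adjusted p = 5.73e-05), and 23 were not called.

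Yolk protein genes were nearly silent in daf-2lf. The vitellogenins are lipoproteins that the adult intestine makes and supplies to oocytes. All 6 were called lower, with sums of 421 to 626 CPM in wild type and 1.55 to 1.91 CPM in daf-2lf and a median of -6.76 log2 with members at their bounds. The gene vit-6 (NCBI gene 177619 on the plus strand of chromosome IV, 8261157 to 8266459) stood at 317, 365 and 222 CPM in wild type and 0.100, 0.598 and 0.729 CPM in daf-2lf, a change of -9.32 log2 (SE 0.47, adjusted p = 7.87e-08). For vit-2 the wild-type libraries had 101, 117 and 98.9 CPM, and with no more than 3 counts in each daf-2lf library it was at least 589-fold lower (adjusted p = 6.21e-08). Members other than vit-6 are close copies, so their separate levels are uncertain.

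Tissue markers put these falls beside the somatic tissues. Neuron markers were called higher in 14 of 20 and lower in 0, with sums of 656 to 712 CPM in wild type and 1099 to 1379 CPM in daf-2lf. Intestine markers were called higher in 15 of 23 and lower in 0 (12 and 2 without daf-2lf replicate 1), with sums of 12900 to 13990 CPM in wild type and 20350 to 32060 CPM in daf-2lf. Body wall muscle markers were called higher in 13 of 23, but in 5 without daf-2lf replicate 1 and in 8 without wild-type replicate 1. The myosin gene unc-54, the most abundant of them, differed by -0.35 log2 and was not called (adjusted p = 0.286), except lower with limma-voom. Of 14 early embryo markers 2 were detected well enough to test, and 10 had no more than 3 counts in each wild-type library. Epidermis markers were called higher in 6 and lower in 4 of 16, and coelomocyte markers in 0 of 4 either way. The germline lists fell in the same libraries in which most neuron and intestine markers rose. The part of one in the other was not tested.

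**Figure D4:**
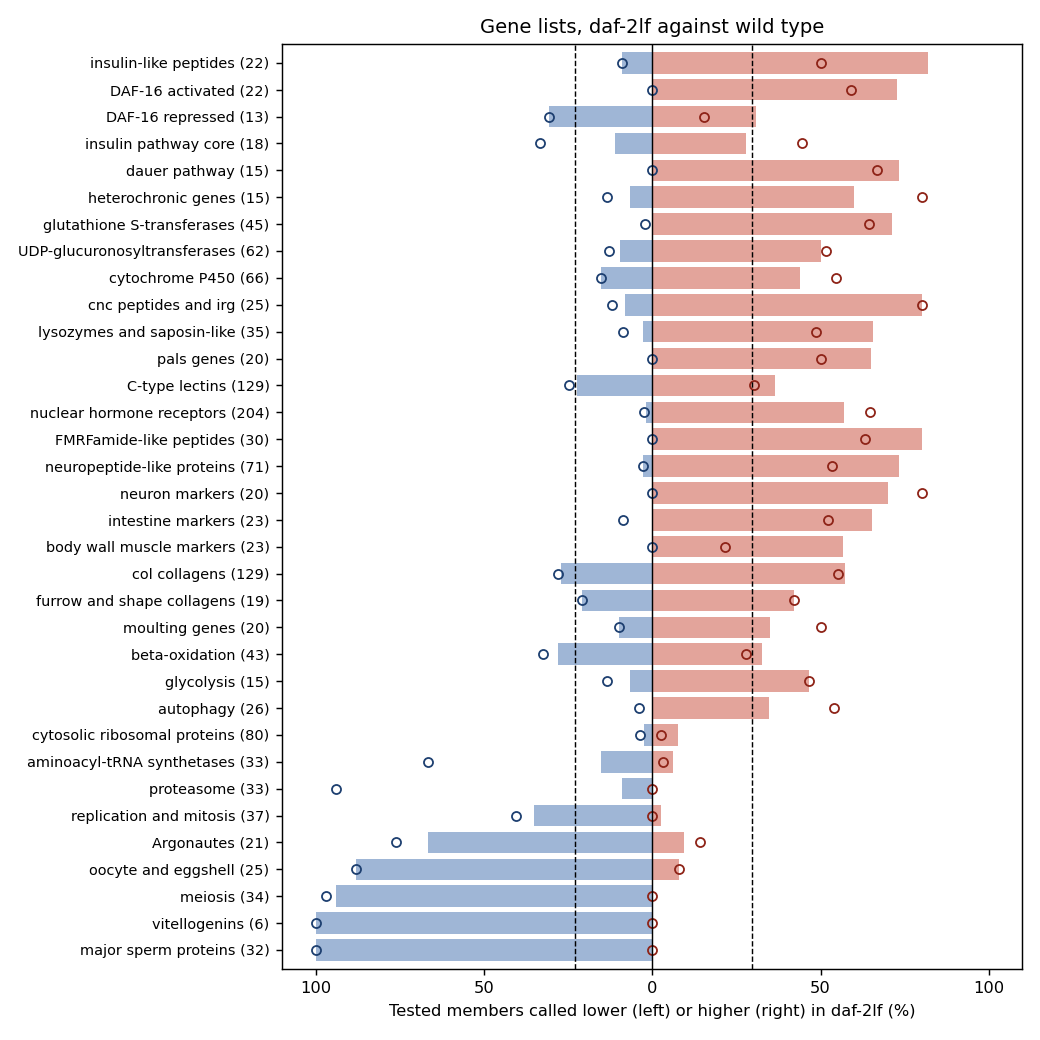
Percentage of the tested members of 34 gene lists that were called higher (right) or lower (left) in daf-2lf, with the number tested in brackets. Dashed lines mark the shares over all tested genes, 29.5% and 22.9%, and open circles give the shares without daf-2lf replicate 1. Sperm, vitellogenin and meiosis lists lie far to the left, and peptide, receptor and glutathione S-transferase lists to the right.

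In several housekeeping families 1 copy fell while a related copy rose or differed by far less. These pairs were picked after their values were seen. Of the phosphofructokinase genes of glycolysis, pfk-1.2 was at 26.1, 25.1 and 22.7 CPM in wild type and at most at 0.100 CPM in daf-2lf, at least 137-fold lower (adjusted p = 4.45e-07). The other copy, pfk-1.1, rose by 0.58 log2 (adjusted p = 0.00155). The cytochrome c gene cyc-2.2 went from 36.05 ± 1.04 CPM to no counts (adjusted p = 2.66e-07), while cyc-2.1 had 560.1 ± 22.9 and 841 ± 332 CPM, where a call of a rise (adjusted p = 0.043) was lost in 17 of 22 alternatives. The proteasome subunit gene rpn-6.2 fell from 32.9, 32.0 and 30.97 CPM to 4.62, 3.59 and 4.43 CPM (adjusted p = 7.38e-07). Its copy rpn-6.1 had 141 ± 4.50 and 137 ± 3.77 CPM and was not called (adjusted p = 0.724), but it was called lower with DESeq2, at -0.23 log2 (adjusted p = 0.0091), and in the fit to only the groups compared without daf-2lf replicate 1. Among the Argonautes, proteins that carry small RNAs, alg-3 fell from 127, 123.4 and 114 CPM to 0.452, 0.478 and 0.673 CPM (adjusted p = 3.98e-07). The microRNA Argonautes alg-1 and alg-2 rose by 0.48 and 0.69 log2 (adjusted p = 0.0107 and 0.000504), whereas csr-1 and wago-1 of the germline fell by 1.04 and 1.78 log2 (adjusted p = 0.000642 and 0.000466). The translation factor gene iff-1 fell by 1.41 log2 and iff-2 rose by 0.85 log2 (adjusted p = 0.000717 and 0.00397). The histone H3 variant gene his-70 went from 21.6 ± 2.84 CPM to no counts (adjusted p = 6.73e-07), while his-71 had 65.5 ± 1.92 and 97.6 ± 24.8 CPM, where a call of a rise (adjusted p = 0.0353) was lost in 11 of 22 alternatives.

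By protein domain, as the authors' table describes each gene, most tested members of some families were called lower, beside 22.9% of all tested genes. These domains were taken from 148 with at least 15 tested genes after their counts were seen. Of 96 genes with a major sperm protein domain 86 were called lower, and of 88 with a protein-tyrosine phosphatase domain 72 were, 60 of these at least 16-fold. Genes with a calcineurin-like phosphoesterase domain were called lower in 38 of 63, and those with a chymotrypsin-family peptidase domain in 17 of 18. All 41 tested genes with the domain of unknown function PF02206 were called lower. So were 13 of 19 with the peptidase M13 domain PF01431. These families do not hold most of the falls. The protein kinase domain PF00069 alone had 106 of 252 genes called lower (42.1%) and 44 called higher. Pseudogenes were called lower in 255 of 539 (47.3%) and protein-coding genes in 22.1%.

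The falls were also uneven along the genome. On chromosome IV 345 of 2669 tested genes were at least 16-fold lower, and on the X chromosome 30 of 2193. The X chromosome, which is known to be largely silent in the germline, had 45.01% of its genes called higher and 8.25% lower. Chromosome I had 19.8% called higher and 29.6% lower. Without replicate 1 the X chromosome stood at 49.5% and 9.89%, and chromosome I at 18.9% and 40.9%. Of the 1218 genes at least 16-fold lower, 40.1% had such a gene as the next tested gene on either side, against 14.2% of all tested genes. In windows of 250000 bases the most were on chromosome IV between 5250001 and 5500000, with 29 of 64 tested genes, 6 of them msp genes. The window before it, from 5000001, had 26 of 48. Gene copies that lie side by side, such as these msp genes, are not independent.

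Cuticle collagens moved strongly in both directions. Of 129 tested col genes 74 were called higher and 35 lower, and their summed level was 21180 to 29150 CPM in wild type and 25110 to 38830 CPM in daf-2lf. In epidermal col-10 (NCBI gene 179298 on the minus strand of chromosome V, 9164292 to 9165307) the libraries had 97.5, 164 and 172 CPM in wild type and 1878, 1267 and 1194 CPM in daf-2lf, a rise of 3.32 log2 (SE 0.26, adjusted p = 7.79e-07). The gene col-41 stood at 6.88, 6.55 and 63.8 CPM in wild type and 2204, 1478 and 1362 CPM in daf-2lf, with wild-type replicate 3 well above the other wild-type libraries and all daf-2lf libraries above it. Among the falls, col-63 (NCBI gene 172607 on the minus strand of chromosome I, 8243694 to 8244963) went from 1182, 1587 and 891 CPM to 0.552, 0.239 and 0 CPM, or -12.10 log2 (SE 0.71, adjusted p = 1.6e-07). The genes bli-1 and bli-2 encode the collagens of the struts that join the layers of the adult cuticle. The bli-1 libraries had 1253, 799.8 and 1339 CPM in wild type and 0.301, 0.418 and 0.842 CPM in daf-2lf, a change of -11.08 log2 (SE 0.54, adjusted p = 7.26e-08). Those of bli-2 had 890.2, 722 and 877 CPM in wild type and 12.64, 11.4 and 10.6 CPM in daf-2lf, a change of -6.17 log2 (SE 0.24, adjusted p = 1.71e-08). In neither gene did the groups come near each other. Their neighbour in the list, the adult collagen col-19, was scarce in all libraries, at 2.04 ± 1.01 CPM in wild type. It was called lower, but overlapping genes held more counts than it did itself, so its level is uncertain. By contrast the furrow collagens dpy-7, dpy-9 and dpy-10, present at every larval stage, rose by 1.64, 1.88 and 1.48 log2 (adjusted p = 0.000859, 0.000478 and 0.00334). Their wild-type libraries were spread, at 57.9, 28.5 and 97.4 CPM for dpy-10. For sqt-3, the most abundant of the shape collagens, the difference was 0.15 log2 (adjusted p = 0.554), and its sign turned with the scaling.

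Genes that cycle with moulting did not share a direction. Of 20 tested 7 were called higher and 2 lower, and 4 and 4 with a length trend fitted to each library. The apical matrix gene fbn-1 rose by 2.84 log2 (adjusted p = 0.00217), from 23.5, 13.6 and 75.2 CPM to 81.3, 353 and 371 CPM. The wild-type libraries of fbn-1 were spread, and daf-2lf replicate 1 lay close to wild-type replicate 3. Another apical matrix gene, noah-1, rose by 1.1 log2 (adjusted p = 0.0104) with wild-type libraries at 460.2, 231 and 712 CPM. The gene mlt-10 fell from 962 ± 51.7 to 429 ± 108 CPM (adjusted p = 0.00962). Transcripts of such genes oscillate within each larval stage, and the phase of the worms at harvest is not given.

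Many genes of detoxification enzymes were called higher in daf-2lf. Of 45 tested glutathione S-transferases, which conjugate toxins to glutathione, 32 were called higher and 0 lower. Without replicate 1 the counts were 29 and 1, and the sums were 781 to 896 CPM in wild type and 1201 to 2068 CPM in daf-2lf. The gene gst-14 rose by 5.06 log2 (SE 0.34, adjusted p = 3.01e-07), from 0.182 ± 0.101 to 6.04 ± 1.32 CPM. The SKN-1 reporter gene gst-4 stood at 24.9, 28.5 and 25.7 CPM in wild type and 66.8, 34.1 and 41.01 CPM in daf-2lf, a rise of 0.84 log2 (adjusted p = 0.00551) that shrank to 0.41 log2 without replicate 1. Among all genes the largest fitted rise by the rule for naming genes was that of F56A4.3 (NCBI gene 186346 on the plus strand of chromosome V, 2453414 to 2456147), described in the authors' table as having the N-terminal domain of these enzymes. It had no counts in wild type and 37.5, 22.8 and 16.05 CPM in daf-2lf. Cytochrome P450 genes were called higher in 29 and lower in 10 of 66. Their summed level was 701 to 741 CPM in wild type and 592 to 948 CPM in daf-2lf, with replicate 1 below all wild-type libraries. UDP-glucuronosyltransferases were called higher in 31 and lower in 6 of 62. The P450 gene cyp-35B1, a known DAF-16 target, was at 0.869, 1.64 and 1.02 CPM in wild type and 4.26, 19.6 and 11.3 CPM in daf-2lf, a rise of 3.32 log2 (SE 0.48, adjusted p = 0.000123). The related and more abundant cyp-35A2 fell by 1.33 log2 (adjusted p = 0.000337), from 155.4 ± 10.8 to 61.8 ± 17.9 CPM.

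Few cytosolic chaperone genes were called. Of 21 tested 1 was called lower, hsp-110 at -0.43 log2 (adjusted p = 0.0258), and 0 higher, while 4 were called lower without daf-2lf replicate 1. The call of hsp-110 was lost without any single wild-type library or daf-2lf replicate 2 (adjusted p = 0.0584 to 0.0817), and without daf-2lf replicate 3 the list had 6 members called higher. Of 18 genes of the unfolded protein response of the endoplasmic reticulum 7 were called higher and 1 lower (8 and 2 without replicate 1). The largest rise was that of atf-6, a transcription factor of this response, by 0.90 log2 (adjusted p = 0.0222). That call was lost in 6 of 22 alternatives, among them a fit to only the groups compared (adjusted p = 0.151). It was also lost without wild-type replicate 1 or 2 or daf-2lf replicate 2 or 3 (adjusted p = 0.0674 to 0.0896). The fall was that of the chaperone gene hsp-4, a reporter of the response, from 477, 474 and 461 CPM to 194, 162 and 183 CPM. The change was -1.39 log2 (SE 0.14, adjusted p = 6.33e-06), and the groups did not overlap. Of 8 small heat-shock genes 4 were called higher, and sip-1 rose by 2.67 log2 (adjusted p = 9.28e-06), from 27.2 ± 5.50 to 172 ± 46.7 CPM. The inducible gene hsp-16.2 stayed under 1 CPM in all 6 libraries and was not called (adjusted p = 0.623).

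Immune effector families were mostly higher. Of 25 tested genes of antimicrobial peptides and infection responses 20 were called higher and 2 lower, with a median of 2.14 log2 with members at their bounds. The most abundant, irg-7, rose from 1002, 1465 and 1120 CPM to 2795, 4868 and 2643 CPM (1.52 log2, adjusted p = 0.000642). Lysozyme and saposin-like genes were called higher in 23 of 35 and lower in 1, and in 17 and 3 without daf-2lf replicate 1. Among them spp-5 rose by 1.85 log2 (adjusted p = 0.000216), from 319 ± 31.3 to 1147 ± 541 CPM. The lysozyme gene ilys-5 fell by 1.67 log2 (adjusted p = 0.000291), from 720.1 ± 55.6 to 227 ± 59.3 CPM. Of 20 pals genes, a family that responds to intracellular pathogens, 13 were called higher and 0 lower. C-type lectins were called higher in 47 and lower in 29 of 129, shares of 36.4% and 22.5% beside 29.5% and 22.9% of all tested genes. The abundant clec-63 rose by 0.99 log2 (adjusted p = 0.00144), and clec-123 went from 59.6 ± 4.01 CPM to no counts (adjusted p = 9.82e-07).

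Genes of lipid and sugar metabolism moved in both directions. The stearoyl-CoA desaturase gene fat-7 (NCBI gene 179100 on the minus strand of chromosome V, 7151353 to 7153146) stood at 202, 220.3 and 187 CPM in wild type and 48.8, 38.6 and 21.5 CPM in daf-2lf, a change of -2.48 log2 (SE 0.25, adjusted p = 5.98e-06). Its close relatives fat-5 and fat-6 were not called, at 0.48 and -0.039 log2 (adjusted p = 0.0883 and 0.848), though fat-5 was called higher with limma-voom and without daf-2lf replicate 3 (for the latter, adjusted p = 0.0144). The fatty acid synthase gene fasn-1 was at 519.6, 472 and 604 CPM in wild type and 795, 1161 and 1303 CPM in daf-2lf and rose by 1.03 log2 (SE 0.18, adjusted p = 0.000455). Its regulator gene sbp-1 rose by 1.13 log2 (adjusted p = 9.65e-05), with overlapping genes holding 87.6% as many counts. The lysosomal lipase gene lipl-1 rose by 3.50 log2 (adjusted p = 2.47e-06), from 2.38 ± 0.875 to 26.9 ± 8.35 CPM. Of 43 beta-oxidation genes 14 were called higher and 12 lower, a balance that turned to 7 and 13 with RLE size factors. The first counts are 32.6% and 27.9%, near the 29.5% and 22.9% of all tested genes. Of 15 glycolysis genes 7 were called higher and 1 lower (7 and 2 without replicate 1), with ldh-1 at 0.87 log2 (adjusted p = 0.00596). Genes of the glyoxylate cycle, gluconeogenesis and trehalose were called higher in 9 and lower in 3 of 21. Lipid-binding protein genes were called higher in 6 and lower in 1 of 9 (4 and 1 without replicate 1). The gluconeogenesis gene pck-2 rose by 0.65 log2 (adjusted p = 0.00562), from 1056 ± 56.6 to 1661 ± 384 CPM.

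For the protein synthesis and turnover machinery the answer depended on daf-2lf replicate 1. Of 33 proteasome genes 3 were called lower with it and 31 without it, at medians of -0.040 and -0.34 log2. Aminoacyl-tRNA synthetases were called lower in 5 with it and 22 without it, of 33. Cytosolic ribosomal protein genes, which are short, summed to 115300 to 121700 CPM in wild type and 117300 to 205000 CPM in daf-2lf, the highest value being that of replicate 1. Of 80 tested 6 were called higher and 2 lower, and 2 and 3 without that library. Without daf-2lf replicate 3 instead, 51 were called higher, and without replicate 2 14. The median of the family moved from 0.37 to -0.049 log2. Autophagy genes were called higher in 9 of 26, and in 14 without replicate 1. Their regulator gene hlh-30 was at 108, 112 and 109.7 CPM in wild type and 209, 201 and 188 CPM in daf-2lf, a rise of 0.86 log2 (SE 0.11, adjusted p = 5.01e-05) with no overlap.

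Neuropeptide genes and nuclear receptor genes rose broadly. Of 30 tested flp genes 24 were called higher and 0 lower, and of 71 nlp genes 52 and 2. Without replicate 1 the rises were 19 and 38. The gene flp-15 rose by 2.59 log2 (adjusted p = 3.6e-05), from 6.69 ± 0.924 to 40.3 ± 14.3 CPM. The neuropeptide gene nlp-12 was at 7.14, 9.97 and 10.7 CPM in wild type and 49.8, 56.98 and 27.4 CPM in daf-2lf, a rise of 2.27 log2 (SE 0.36, adjusted p = 0.00022). The processing enzyme gene egl-21, the most abundant neuron marker, rose by 1.14 log2 (adjusted p = 0.000168). Nuclear hormone receptor genes were called higher in 116 of 204 and lower in 4, and higher in 132 without replicate 1. The largest rise was nhr-155, at 5.25 log2 (adjusted p = 5.08e-07), from 0.181 ± 0.117 to 7.32 ± 0.640 CPM. Over all 561 tested genes with a transcription factor family in the authors' table, 255 were called higher and 63 lower. Genes of the bHLH family were called higher in 16 of 24, and GATA factors in 6 of 9. The epidermal GATA factor gene elt-3 rose by 1.25 log2 (adjusted p = 0.00032). For the intestinal elt-2 the difference was 0.52 log2 (adjusted p = 0.0353), a call lost in 11 of 22 alternatives.

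The rule for single genes, protein-coding genes whose groups were separate and whose mean log2 CPM reached 1, named 10 rises and 10 falls. Of the rises, col-36, col-2, col-102, col-123 and col-41 are collagen genes. The alpha-tubulin gene tba-8 (NCBI gene 191455 on the minus strand of chromosome X, 9455485 to 9458348) was at 0.302, 0.241 and 1.34 CPM in wild type and 40.6, 44.7 and 47.4 CPM in daf-2lf, a rise of 6.15 log2 (SE 0.44, adjusted p = 4.84e-07). The uncharacterized gene Y39G8B.7, with a toxin-like ShK domain in the authors' table, rose from 0.453, 0.433 and 0.647 CPM to 73.2, 25.5 and 50.7 CPM (adjusted p = 3.46e-07). Also named were decr-1.1, a reductase gene by its name, and the uncharacterized F14F9.8, at least 27.2-fold and 31.3-fold higher (adjusted p = 1.55e-05 and 6.44e-06). For col-123 overlapping genes held many times its own counts, so its level is uncertain. All 10 falls went to no counts in daf-2lf, and 5 of them are the msp genes msp-40, msp-81, msp-57, msp-19 and msp-36. Among the others msrp-2 and R09E10.6 were at 102.3 ± 12.8 and 107 ± 16.50 CPM in wild type and at least 570.2-fold and 598-fold lower (adjusted p = 2.93e-07 and 2.56e-07). Genes that overlap R09E10.6 had 94.5% as many counts as this gene. The remaining 3 were nsph-3.2, alg-4 and Y57G11A.2, each above 100 CPM in all wild-type libraries. Overlapping genes also had between 20.1% (syp-1) and 75.7% (lin-28) as many counts as skn-1, age-1, lin-28, syp-1, cyc-2.2, col-41 and fbn-1, described above.

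Finally the daf-2lf difference was measured on the skn-1gf background, as the double mutant against skn-1gf, which shares no library with the first comparison. It gave 4944 called genes, 31.7% of those tested, with 13.4% called higher and 18.4% lower. Of the 3565 genes called lower in daf-2lf, 1890 (53.0%) were called lower here too, which is 66.1% of the falls on this background. Of the 4587 called higher, 960 (20.9%) were called higher here too, 46.1% of the rises on this background. Another 127 and 357 were called in the opposite direction. Signs were the same on both backgrounds for 82.4% of the genes called lower and 59.4% of those called higher. Their medians on this background were -1.14 and 0.15 log2. Across genes, which are not independent replicates, the changes correlated at r = 0.855 and rho = 0.406. The value of r includes fitted changes of genes with no counts in a group, which have no exact size. The difference between both changes, tested as an interaction over all 12 libraries, was called for 4308 genes, 27.7% of those tested. That count ranged from 2786 without wild-type replicate 1 to 5921 without daf-2lf replicate 1.

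Sperm genes, DAF-16 targets and insulin-like peptides differed on both backgrounds. On the skn-1gf background 32 of 32 msp genes and 16 of 16 sperm markers were called lower. Of 22 DAF-16-activated genes 13 were called higher and 1 lower, with sod-3 at 4.67, mtl-1 at 4.38 and lys-7 at 2.49 log2. Insulin-like peptides were called higher in 12 and lower in 2 of 22, with ins-35 at 2.94 log2. A difference between the backgrounds was called for 7 DAF-16-activated and 6 insulin-like peptide genes, beside 27.7% of all tested genes. For fat-7 the change was -2.54 log2, close to that on the wild-type background.

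Most oocyte genes, and some yolk and cuticle genes, had a called difference between the backgrounds, which 27.7% of all tested genes had. Of 25 oocyte and eggshell genes 3 were called lower on the skn-1gf background, and 20 had a called difference between backgrounds. So did 3 of 6 vitellogenins and 74 of 129 col genes. On the skn-1gf background 3 of the 6 vitellogenins were called lower. Further lists, picked after their values were seen, are read against 13.4% of tested genes called higher there and 18.4% lower. Of 25 antimicrobial peptide and infection response genes 3 were called higher and 9 lower, and 21 had a called difference. Rises were called for 5 of 30 flp, 7 of 71 nlp and 24 of 204 nuclear receptor genes. Of 34 meiosis genes 7 were called lower, and of 37 replication and mitosis genes 14 were called higher and 0 lower. For gld-1 the double mutant had 52.5 ± 1.57 CPM and skn-1gf 113 ± 74.9 CPM, a change of -1.11 log2, which is 2.03 log2 above that on the wild-type background (adjusted p = 0.0231). That call was lost without skn-1gf replicate 1 (adjusted p = 0.0579). For puf-5 the changes differed by 3.53 log2 (adjusted p = 0.00056), and for vit-6 by 5.51 log2 (adjusted p = 6.06e-05), with vit-6 at 25.5 ± 6.87 CPM in skn-1gf and 1.81 ± 0.0786 CPM in the double mutant. The dauer-related gene dao-4 was at 0.862 ± 0.495 and 0.472 ± 0.253 CPM in these groups, a difference of 6.82 log2 between backgrounds (adjusted p = 5.6e-05). The rise of lin-46 was 0.63 log2 on the skn-1gf background, lower by a difference of -3.85 log2 (adjusted p = 9.39e-05). No rise of pqm-1 was called there, at -0.47 log2 (adjusted p = 0.0555), a difference of -2.02 log2 (adjusted p = 0.000198).

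Some cuticle genes moved in opposite directions. The moulting gene mlt-10 was lower in daf-2lf than in wild type and higher in the double mutant than in skn-1gf, by 3.28 log2, a difference of 4.45 log2 (adjusted p = 8.68e-05). The shape collagen gene lon-3 changed by -0.88 and 2.50 log2, a difference of 3.38 log2 (adjusted p = 9.58e-05). No rise of col-10 was called on the skn-1gf background, at -0.25 log2 (adjusted p = 0.469), where skn-1gf had 1750 ± 242 CPM, a difference of -3.57 log2 (adjusted p = 5.32e-05). The fall of bli-1 was -7.0 log2 there, a difference of 4.08 log2 (adjusted p = 0.000604). The genes with a tested difference were picked after their values were seen.

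**Figure D5:**
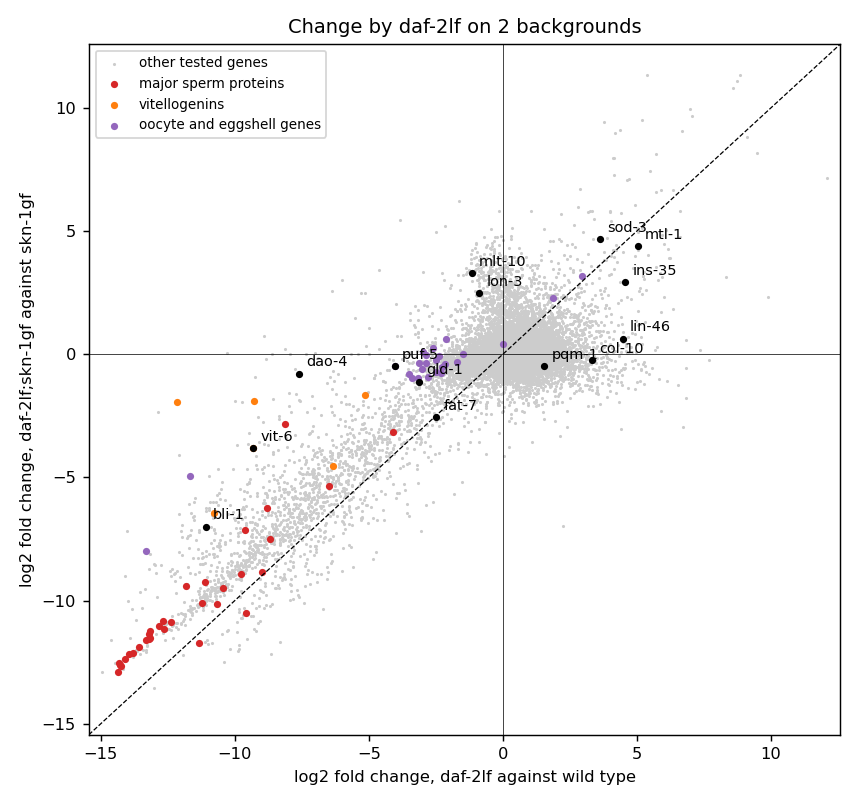
Log2 change by daf-2lf on the wild-type background (horizontal) and on the skn-1gf background (vertical) for 15575 tested genes, with the line of equal change. Most major sperm protein genes lie in the lower left within a few log2 units of the line, while most oocyte genes lie near 0 on the vertical axis. Values of genes with no counts in a group are fitted and have no exact size.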

How the data were processed

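RNA was extracted from whole worms and libraries were built by an outside company, per the labels' protocols. The authors deposited a table of whole-number counts per gene, not normalized, with gene identifiers, coordinates, lengths and descriptions. The aligner, the counting program, strand handling and the rule for reads shared between genes are not given in the sources used here. The submitters' processing notes name the genome build ce10, whereas the chromosome versions in the file header are those of WBcel235, and of 46936 genes 46920 matched a RefSeq table of that assembly. Coordinates are those of the deposited table.

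Groups and replicate numbers came from the sample titles. Counts were analysed in R 4.3.3 with edgeR 4.0.16. Low-count genes were removed with filterByExpr at a minimum count of 10, which left 15575, and libraries were scaled by TMM. All 12 libraries entered 1 fit with a mean for each genotype. Contrasts were tested by quasi-likelihood, p-values were adjusted by Benjamini-Hochberg, and genes under 0.05 are said to be called, to rise or to fall. Log2 values are fitted log2 fold changes of daf-2lf over wild type unless another contrast is named. SE is an approximate standard error, the absolute log2 change divided by the square root of the test's F statistic. Where all libraries of a group had at most 3 counts, the fold is a lower bound against the largest level that 3 counts gave in a library of that group, which covers counting error only. Those levels were 0.113 to 0.179 CPM over the 6 libraries. The procedure was tested on simulated counts with known changes before use. It called 4% of 1.5-fold, 58% of 2-fold and 100% of 4-fold changes, so a gene that is not called may still differ. The simulation changed only 200 genes and had no library short of counts from long genes. The changed genes were all taken from above a set mean level, so the percentages do not cover scarcer genes. Counts were drawn with a spread that followed the level of a gene, without a spread of its own.

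The comparison, the gene lists and the genes fixed for naming were chosen with earlier results of these data known. Genes were named by a rule: 13 genes of the insulin pathway and its targets, the 10 largest rises and 10 largest falls under the conditions given with them, and for each list the largest called rise, the largest called fall and the highest level. Gene pairs, protein domains, windows, further list members and the genes compared between backgrounds were picked after their values were seen. Lists carry no set test and are read against the shares of all tested genes. Alternatives were RLE size factors, upper-quartile factors, DESeq2 1.42.0, limma 3.58.1 (voom with sample quality weights), no low-count filter, a minimum count of 50, a fit to only the groups compared, a length trend per library, the replicate number as a block, and each library left out in turn. Promoter motifs were not analysed here, and 1 gene that the rule names is not reported here.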

Additional observations from a re-analysis of the deposited data

Results flagged for a closer look

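The daf-2lf change was compared between the wild-type and skn-1gf backgrounds by the interaction over all 12 libraries in edgeR's quasi-likelihood test, and 4308 genes had a called difference. Values here are the log2 change on the skn-1gf background minus that on the wild-type background, so a positive value for a gene that fell means a smaller fall or a rise beside skn-1gf. The genes were picked after their values were seen, and no cause was tested.

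Among germline and yolk genes the difference was 2.03 log2 for gld-1, 3.53 for puf-5 and 5.51 for vit-6. That of gld-1 lost its call without skn-1gf replicate 1. For the ageing- and dauer-related gene dao-4 it was 6.82 log2, with both groups of the skn-1gf background near the level of daf-2lf. The larval timing gene lin-46 differed by -3.85 log2 and the zinc-finger gene pqm-1 by -2.02 log2. Cuticle and moulting genes lay on both sides: 4.45 log2 for mlt-10, 3.38 for lon-3, 4.08 for bli-1 and -3.57 for col-10.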

How the results depend on the processing

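Of the 141 genes named in the text, 113 kept their direction and their side of the threshold in all 22 alternatives. For 15 a call was lost in at least 1 alternative, for 9 a call was gained, and for 6 that were not called the sign turned. Of 134 list counts, 57 stayed within 1.5 times their value in every alternative. The causes of these moves were not tested.

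The number of calls of daf-2lf against wild type was 6217 in a fit to only the groups compared, with 2833 higher. Leaving out each library in turn gave 6657 to 9420 calls, 3576 to 4721 higher, 3081 to 4860 lower and 5161 to 6047 at least 2-fold. For the double mutant against skn-1gf these ranges were 3850 to 7318 in all, 1438 to 3058 higher and 2262 to 4260 lower. For the difference between backgrounds they were 2786 to 5921 in all, 974 to 2718 higher and 1798 to 3253 lower. Its lowest count of higher calls came without skn-1gf replicate 1, with 988 without wild-type replicate 1 and the same number without double mutant replicate 3, and its highest without daf-2lf replicate 1. DESeq2 called 2587 of these higher. With limma-voom and quality weights, 10101 genes were called between double mutant and skn-1gf (4577 higher, 5524 lower) and 9444 for the difference (4135 and 5309). The difference has no value in fits to only the groups compared.

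The share of calls that were higher was 56.3% with TMM, 44.9% with DESeq2, 45.6% in the fit to only the groups compared, 45.3% with the length trend and 48.4% without daf-2lf replicate 1.

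Replicate numbers recur in every genotype. Same-numbered wild-type and daf-2lf libraries did not deviate together (r = -0.081, 0.016 and 0.057 across genes), and of the daf-2lf libraries only replicate 2 correlated best with its own number in wild type, so the numbers are not read as pairs. With a replicate block 7918 genes were called, and 4727 and 4080 in the other contrasts.

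Sign changes were seen for akt-1 (0.23 with limma-voom, 0.18 without daf-2lf replicate 1, 0.15 in only the groups compared without daf-2lf replicate 1), unc-54 (0.20 with the length trend), rpn-6.1 (0.020 with upper-quartile factors), sqt-3 (-0.028 with RLE, -0.028 with DESeq2, -0.040 with limma-voom, -0.031 with the length trend, -0.20 without daf-2lf replicate 1, -0.23 in only the groups compared without daf-2lf replicate 1), hsp-16.2 (-0.029 with the length trend) and fat-6 (0.0095 with upper-quartile factors, 0.21 with limma-voom, 0.057 without wild type replicate 2, 0.00054 without daf-2lf replicate 3), all log2. Leaving out each library in turn, the values were -0.36 to 0.18 for akt-1, -0.20 to 0.31 for sqt-3 and -0.21 to 0.057 for fat-6. Beside the lost calls described above, a fit to only the groups compared lost those of icl-1, pfk-1.1, alg-1, noah-1, gst-4 and pck-2 (adjusted p = 0.05 to 0.116). The length trend lost those of dao-2 and csr-1. With RLE size factors alg-1 lost its call (adjusted p = 0.0931). Of the sign changes that of akt-1 with limma-voom passed the threshold (adjusted p = 0.0409). At these depths 3 counts equal up to 0.179 CPM, so lower levels are not told from 0.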

Other observations

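Several gene families not described above also split. Transthyretin-like genes, a large nematode family of secreted proteins, were called higher in 29 of 50 and lower in 8 (26 and 8 without daf-2lf replicate 1). Among them ttr-8 rose by 3.22 log2 (adjusted p = 2.54e-05) and ttr-14 went from 96.0 ± 30.1 CPM to no counts (adjusted p = 5.55e-06). Hedgehog-related genes, which act in the epidermis and cuticle, were called higher in 32 of 70 and lower in 11, while their summed level was 4767 to 5451 CPM in wild type and 4675 to 5461 CPM in daf-2lf. Genes of short nematode-specific peptide families, counted as sperm peptides, were called lower in 35 of 77 (45.5%) and higher in 20. Without daf-2lf replicate 1 the counts were 38 and 16, and on the skn-1gf background 42 and 2. No more than 3 counts in each library of the group were seen for 27 of them in daf-2lf and 8 in wild type. The most abundant of them, nspg-7.1, rose by 1.24 log2 (adjusted p = 0.00086), from 277, 336 and 300 CPM to 892, 735 and 521 CPM. The list therefore moved only in part with the major sperm proteins. F-box A genes were called higher in 63 and lower in 37 of 142, and MATH and BTB genes, which like them encode adaptors for protein turnover, in 14 and 27 of 70.

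Somatic gonad markers stood beside the germline: 4 of 11 were called lower and 1 higher, with sums of 518 to 545 CPM in wild type and 166 to 609 CPM in daf-2lf. The lowest sum was that of daf-2lf replicate 1, and without it 5 were lower and 4 higher. The forkhead gene fkh-6, which acts in gonad development, fell by 3.97 log2 (adjusted p = 4.17e-06), from 10.4, 10.98 and 12.4 CPM to 0.853, 0.837 and 0.449 CPM, with overlapping genes holding 90.6% as many counts. Of 12 pharynx markers 3 were called higher. Cuticlin genes, for proteins of the cuticle's ridges and inner layers, were called higher in 9 of 30 and lower in 5. Elongase genes of fatty acid synthesis were called higher in 2 and lower in 3 of 9. Neither call of a rise held without daf-2lf replicate 1 or without any single wild-type library. The gene elo-7 went from 15.6 ± 0.349 CPM to 0.0187 ± 0.0324 CPM (adjusted p = 6.23e-07), at least 86.9-fold lower.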
